A study of Mus musculus with 3 samples.

Results

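The genes of the neuregulins and of the ErbB receptors were examined for 5-hydroxymethylcytosine (5hmC), an oxidised form of 5-methylcytosine (5mC), in mouse cerebellum. There were 8 such genes among 21757 protein-coding genes, namely the ligand genes Nrg1, Nrg2, Nrg3 and Nrg4 and the receptor genes Egfr, Erbb2, Erbb3 and Erbb4. They were chosen by name, and a peak was assigned to a gene when it overlapped the gene body or the 5 kb upstream of its start by 1 bp or more. The data came from nanopore-sequenced hydroxymethylated DNA immunoprecipitation (hMeDIP-seq), in which an antibody against 5hmC pulls down sonicated DNA and the recovered fragments are read directly, so that each CpG in a fragment is called as 5hmC, 5mC or unmodified cytosine (C). All 3 replicates were of female C57Bl6Cr cerebellum at 8 weeks of age, with no further treatment or allele. By their library names they shared 1 source, and the sheared DNA was divided for sonication, so n = 3 counts pulldowns and not animals, and the spread between them is technical. Replicate 1 was precipitated with a whole serum antibody, and replicates 2 and 3 with an IgG-purified antibody. The peak lists held 497, 8546 and 5166 regions in replicates 1, 2 and 3. Over the regions of all 3 lists together, these replicates gave 69910, 104238 and 75624 CpG base-calls. The median CpG site had a single call. The antibody, the size of the list and the replicate cannot be told apart for replicate 1.

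Neuregulins are growth factors with an EGF-like domain that bind the receptor tyrosine kinases ErbB3 and ErbB4, which then pair with ErbB2 or with one another, whereas EGFR binds EGF and its relatives. In the nervous system these ligands and receptors are known for roles in glia, in myelination and at synapses, and cerebellar granule cells are known to express neuregulins and ErbB4. 5hmC is abundant in neurons, where it is known to lie within gene bodies and enhancers.

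Peaks in these genes lay almost wholly in Nrg2. The number of peaks in the 8 genes was 0, 4 and 3 in replicates 1, 2 and 3 (mean 2.33 ± 2.08, SD, n = 3). Of the 7 peaks, 6 lay in Nrg2 and 1 in Erbb4, and the other 6 genes had none in any list. A peak was thus found in 0 of the 8 genes in replicate 1, 1 in replicate 2 and 2 in replicate 3, beside 1.88%, 16.5% and 12% of all protein-coding genes. Over the lists together, 2 of the 8 genes had a peak, beside 21.7% of protein-coding genes, and 1 of the 8 had a peak in 2 or more replicates, beside 7.45%. The lists hold only regions past the threshold of the peak caller, so a gene without a peak is not shown to lack 5hmC.

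**Figure D1:**
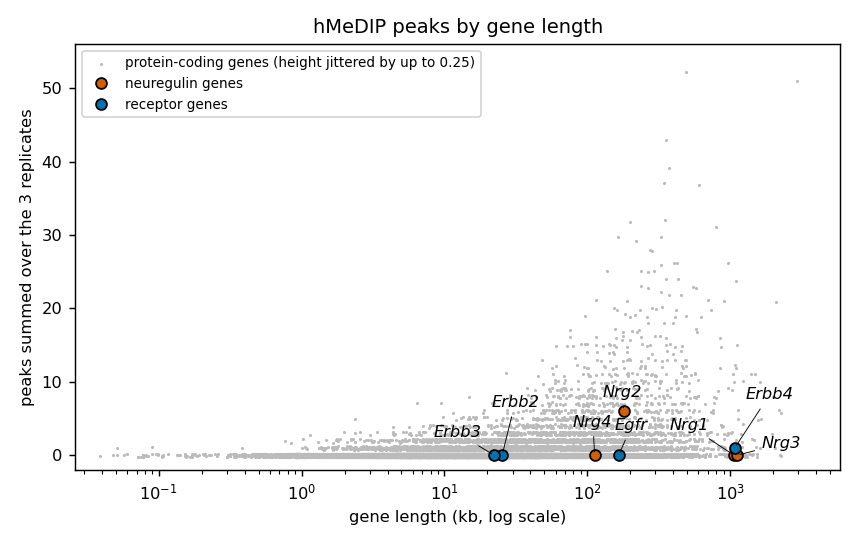
Peaks summed over the 3 replicates (vertical axis) against gene length in kb (horizontal log axis) for protein-coding genes (grey points), with the 4 neuregulin genes in orange and the 4 receptor genes in blue. Nrg2, with 6 peaks at 181 kb, stands above the other 7 genes, which have 0 or 1 peak although Nrg1, Nrg3 and Erbb4 are each over 1 Mb long.

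Among the receptors, Erbb4 alone had a peak. Erbb4 (ENSMUSG00000062209.17, GRCm39 chromosome 1, 68071345 to 69147619, minus strand, 1076 kb) encodes a neuregulin receptor that can signal without ErbB3. Its peak was called in replicate 3, at 69112498 to 69112799 (302 bp), with a fold enrichment over local background of 2.85 and a q-value of 0.0203. It lay in intron 1 of 26 of the longest transcript, 35.1 kb from the gene start, and overlapped no exon of the gene. The fold was under the lower quartile of 2.90 over the peaks of that replicate in genes, so it was one of its weaker calls. In replicates 1 and 2 no base was called in this stretch. In replicate 3 each of its 4 CpGs carried a single call, 3 of 5hmC and 1 of C, a 5hmC share of 75.0% (exact 95% interval 19.4 to 99.4%). The first 300 bases of the peak, chr1:69112498-69112797 of the plus strand of GRCm39, are shown because this was the 1 peak called in a receptor gene. It was not among the peaks with a q-value under 0.01. CpG dinucleotides are in capitals.
Erbb4 intron 1: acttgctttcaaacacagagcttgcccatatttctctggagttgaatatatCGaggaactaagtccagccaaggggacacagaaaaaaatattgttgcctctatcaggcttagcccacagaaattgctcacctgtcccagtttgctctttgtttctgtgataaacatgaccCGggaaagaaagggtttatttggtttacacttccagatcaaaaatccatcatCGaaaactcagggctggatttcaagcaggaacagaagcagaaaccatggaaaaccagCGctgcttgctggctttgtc

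Egfr, Erbb2 and Erbb3 had no peak in any replicate. Egfr (ENSMUSG00000020122.18, chromosome 11, 16702198 to 16868158, plus strand, 166 kb) encodes the EGF receptor, and its nearest peaks were 1958, 249 and 249 kb away in replicates 1, 2 and 3. Erbb2 (ENSMUSG00000062312.7, chromosome 11, 98303203 to 98328542, plus strand, 25.3 kb) encodes the co-receptor that has no known ligand of its own, with the nearest peaks 71.3, 20.2 and 10.4 kb away. Erbb3 (ENSMUSG00000018166.10, chromosome 10, 128403392 to 128425811, minus strand, 22.4 kb) encodes a neuregulin receptor with little kinase activity, with the nearest peaks 282, 132 and 189 kb away. Lacking a peak was common for genes of these lengths. Of protein-coding genes of like length, meaning 20% shorter to 25% longer, 47.9% of 812 had no peak for Egfr, 80.5% of 2788 for Erbb2 and 81.8% of 2798 for Erbb3. The short CpG-rich receptor genes, at 17.3 CpGs per kb in Erbb2 and 16.3 in Erbb3, were among the many short genes that the lists leave empty.

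Among the ligands, Nrg2 held every peak. Nrg2 (ENSMUSG00000060275.16, GRCm39 chromosome 18, 36149819 to 36330456, minus strand, 181 kb) encodes a neuregulin that binds ErbB3 and ErbB4 and is known for its expression in cerebellar granule and Purkinje cells. It had 0, 4 and 2 peaks in replicates 1, 2 and 3. Of the 733 protein-coding genes of like length, the median gene had 1 peak over the lists (quartiles 0 and 2), 82 (11.2%) had more than the 6 of Nrg2, and 334 (45.6%) had none. Nrg2 was thus in the upper part of the genes of its length, without being extreme. Syt9 (178 kb), a synaptotagmin gene, Tgfbr3 (188 kb), which encodes betaglycan, and Pag1 (146 kb), which encodes a membrane adaptor, had the same count in each replicate, and 6 genes of like length in all did so.

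Of the 6 peaks in Nrg2, 4 lay in the long intron 1 of 9 of the full-length transcript (ENSMUST00000115713.10), 1 in intron 3 and 1 over the last exon. The intron 1 peaks had summits 21.4, 56.9 and 78.8 kb from the gene start in replicate 2 and 79.0 kb in replicate 3. The first of these (36309029 to 36309332, 304 bp) and the second (36273424 to 36273740, 317 bp) both had a fold of 4.79 and a q-value of 1.06e-04. The highest fold of the gene was 5.46 (q = 4.49e-05), at the intron 3 peak of replicate 3 (36174069 to 36174737, 669 bp, summit 156 kb from the start). Read at the background most common in each list, folds of 3.83 and 3.87 correspond to 3 fragments at the summit, and 4.79 to 4. The fold of 5.46 gave no whole number on this reading (4.64). The folds in Nrg2 thus rested on few fragments, and their order is not a graded measure of 5hmC. The peak over exon 10 of 10 in replicate 2 (36149055 to 36150661, fold 3.83, q = 0.00250) was the widest at 1607 bp. It also lay wholly within Psd2, a gene on the opposite strand whose 3′ end overlaps that of Nrg2, with 843 bp in both genes and 764 bp beyond the end of Nrg2, so the gene it belongs to cannot be told apart. None of the 6 peaks overlapped the coding sequence of the full-length Nrg2 transcript or the 5 kb upstream of its start. Coding sequence of Psd2 was not examined. The Ensembl canonical transcript of Nrg2 is a shorter form of 50.7 kb (36150967 to 36201678), and the intron 3 peak was the 1 peak of the 6 within it.

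**Figure D2:**
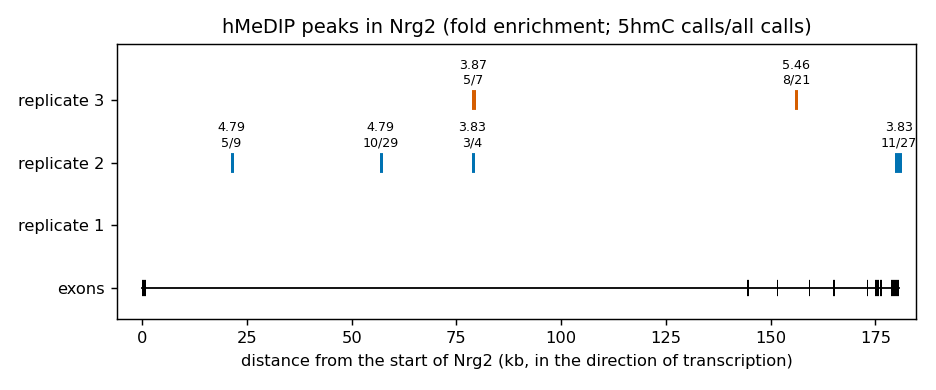
Peaks of each replicate (rows; orange and blue blocks) along Nrg2, in kb from its start in the direction of transcription, above the 10 exons of the full-length transcript (black blocks, narrow ones widened to be visible); the upper number at each peak is the fold enrichment and the lower pair 5hmC calls over all calls. Replicates 2 and 3 share 1 location, near 79 kb in the long first intron, and replicate 1 has no peak.

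One region of Nrg2 was found in more than 1 replicate. Peaks at 36251429 to 36251833 in replicate 2 (405 bp, fold 3.83, q = 0.00250) and 36251255 to 36251640 in replicate 3 (386 bp, fold 3.87, q = 0.00133) overlapped by 212 bp, which was 54.9% of the shorter peak, and their summits were 208 bp apart. Both folds were the most common value of their list. Of the 6 merged regions in the 8 genes, 1 was found in 2 replicates, beside 6.08% of 10997 merged regions in protein-coding genes. The merged region (579 bp) held 10 CpGs, 9 of which were called in some replicate. In replicate 2, 3 of 4 calls in it were 5hmC (75.0%, interval 19.4 to 99.4%), and in replicate 3, 7 of 9 were (77.8%, interval 40.0 to 97.2%). Replicate 1, which had no peak here, gave 1 call, of 5mC. Of the 3 CpGs called in both replicates 2 and 3, 2 were called 5hmC in both.

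Together the 7 peaks gave 101 calls at 65 different CpG sites, 45 of 5hmC, 38 of 5mC and 18 of C, and 33 of the sites had a single call over the replicates. Among the peaks assigned to Nrg2, the share of 5hmC was 40.7% of 27 calls in the peak over exon 10 (interval 22.4 to 61.2%), 34.5% of 29 in the peak at 56.9 kb (17.9 to 54.3%), 55.6% of 9 in that at 21.4 kb (21.2 to 86.3%) and 38.1% of 21 in that of intron 3 (18.1 to 61.6%). Some calls of the peak over exon 10 lay at CpGs beyond the end of Nrg2, within Psd2 only. The 2 highest shares of the gene, 75.0% of 4 calls and 71.4% of 7 (29.0 to 96.3%), belonged to the peaks of the shared region. The intervals of all these peaks overlapped, so no order among them could be read. The peak at 56.9 kb was the densest in CpG, with 53.6 per kb against a median of 18 over the genic peaks of replicate 2, and 8 of its 17 CpGs lay 2 bp from another. Those 8 CpGs gave 4 calls of 5hmC and 10 of 5mC. Repeats were not marked in the reference sequence used, and the part of such closely spaced CpGs in the calls was not tested. Without this peak the share in the Nrg2 peaks of replicate 2 was 47.5% of 40 calls (31.5 to 63.9%).

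Pooled over the peaks of each replicate, the 5hmC share in the 8 genes was 42.0% of 69 calls for replicate 2 (interval 30.2 to 54.5%) and 50.0% of 32 calls for replicate 3 (31.9 to 68.1%). Their mean was 46.0 ± 5.64% (SD, n = 2 replicates with peaks). In the peaks of other protein-coding genes it was 32.4% of 68195 calls (32.0 to 32.7%) and 30.7% of 43358 calls (30.3 to 31.1%). The pooled share in the 8 genes was higher in both replicates. In replicate 2 its interval held the value of the other genes, and in replicate 3 it lay above that value by a narrow margin. Calls along a fragment are not independent and the intervals cover counting error only, so they cannot decide whether the shares differ. The difference was not tested. In replicate 2 all the pooled calls of the 8 genes came from peaks assigned to Nrg2, some of them at CpGs beyond its end. In replicate 3 the Nrg2 peaks alone gave 46.4% of 28 calls (27.5 to 66.1%). Unmodified cytosine made up 17.4% of calls in replicate 2 (9.32 to 28.4%) and 18.8% in replicate 3 (7.21 to 36.4%), beside 27.7% and 27.3% in the other genes. 5mC made up 40.6% and 31.2%, beside 39.9% and 42.0%.

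**Figure D3:**
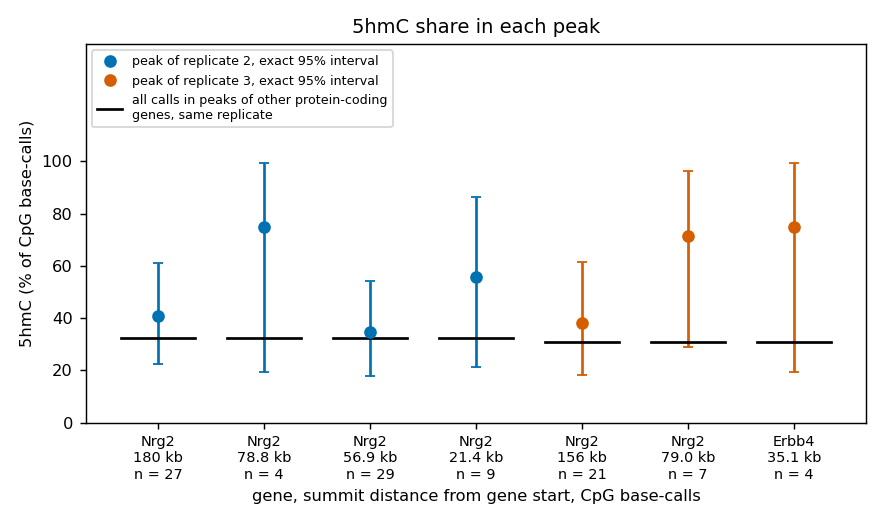
Share of CpG base-calls that were 5hmC (vertical axis, %) in each of the 7 peaks (points, blue for replicate 2 and orange for replicate 3) with exact 95% intervals (bars), and the share over peaks of other protein-coding genes in the same replicate (black lines). Every bar spans its line, including those of the 3 peaks at 71.4 and 75.0%.

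The remaining ligand genes had no peak. Nrg1 (ENSMUSG00000062991.11, chromosome 8, 32303906 to 33374825, minus strand, 1071 kb) encodes the best studied neuregulin, with many isoforms from several promoters, and its nearest peaks were 3191, 695 and 512 kb away in replicates 1, 2 and 3. Nrg3 (ENSMUSG00000041014.19, chromosome 14, 38087063 to 39196036, minus strand, 1109 kb) encodes a ligand of ErbB4 made mainly in the nervous system, with the nearest peaks 16110, 1446 and 1399 kb away. Nrg4 (ENSMUSG00000032311.19, chromosome 9, 55121336 to 55234128, minus strand, 113 kb) encodes a ligand of ErbB4 best known from adipose tissue, with the nearest peaks 26, 39 and 12.6 kb away. Nrg1 and Nrg3 thus lay in wide stretches without a peak, whereas peaks were found within 40 kb of Nrg4 and its 5 kb upstream in each replicate. Of the genes as long as Nrg4, 54.9% of 1264 had no peak.

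Nrg1, Nrg3 and Erbb4 are among the longest genes of the genome, and together held 1 peak in 3.27 Mb, or 0.306 peaks per Mb over the lists. Nrg2 had 32.3 per Mb and protein-coding genes as a whole 10.2. By replicate, the 8 genes had 0, 1.05 and 0.789 peaks per Mb, beside 0.365, 6.13 and 3.73 for protein-coding genes, a mean ratio of 0.128 ± 0.112 (SD, n = 3). Without Nrg2 the ratio was 0.0247. Long genes without a peak were nevertheless frequent. Of 66 genes as long as Nrg1, 23 (34.8%) had none, and of 61 as long as Nrg3, 23 (37.7%) had none, while of 63 as long as Erbb4, 27 (42.9%) had more than its single peak. The median was 1 peak in each of these sets, and the highest count 26, in Ntm, which encodes the cell adhesion protein neurotrimin.

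CpG density moved with the number of peaks among the long genes. Over the 67 genes of like length to Nrg1, itself included, the 24 with no peak had a median of 4.97 CpGs per kb (range 4.10 to 9.68), the 29 with 1 to 4 peaks 6.31 (4.26 to 13) and the 14 with 5 or more 8.27 (5.63 to 14.2). Nrg1 had 6.72 CpGs per kb, Erbb4 5.18 and Nrg3 4.53. Erbb4 and Nrg3 lay close to the median of the genes with no peak and Nrg1 above it, and Nrg2 had 12.2. Counted per CpG in place of per Mb, the ratio of the 8 genes to protein-coding genes was 0.203. Among genes of like CpG number, by the same limits, 86.4% had more peaks than Nrg1, 79.8% more than Nrg3 and 66.2% more than Erbb4, beside 65.2%, 62.3% and 42.9% of the genes of like length. For Nrg2, 16.2% of genes of like CpG number had more peaks, beside 11.2% of those of like length. The share of genes with more peaks was thus higher by CpG number for each of these 4 genes. The part of CpG density in the counts was not tested.

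**Figure D4:**
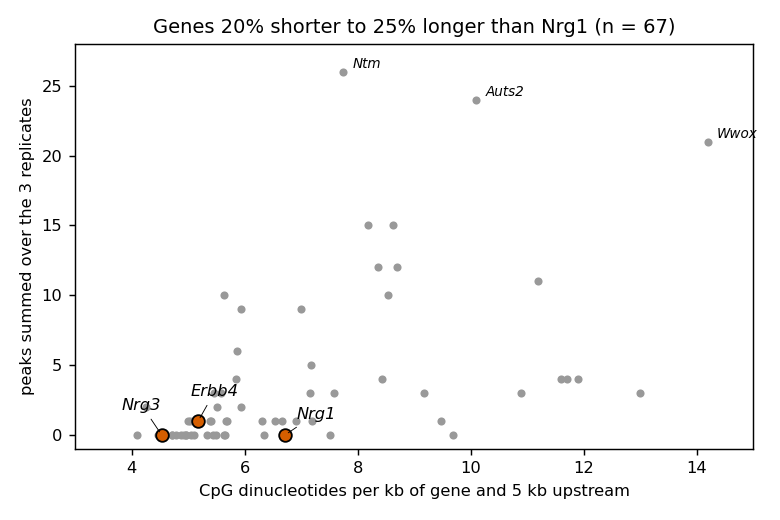
Peaks summed over the 3 replicates (vertical axis) against CpG dinucleotides per kb (horizontal axis) for the 67 genes 20% shorter to 25% longer than Nrg1 (grey points), with Nrg1, Nrg3 and Erbb4 in orange. The 3 orange points lie at 0 or 1 peak and at 4.53 to 6.72 CpGs per kb, and the genes with most peaks (Ntm, Auts2 and Wwox) at higher density.

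Other genes of the ErbB pathway were taken from a list of 65, made up of other ligands, shedding proteases, adaptors and effectors, inhibitors and scaffolds. Of these, 33 (50.8%) had a peak in some replicate and 10 (15.4%) in 2 or more. The genes of the list are long, with a median of 70.8 kb beside 19.2 kb over protein-coding genes. Of 1726 protein-coding genes of like length to that median, 33.1% had a peak in some replicate and 12.2% in 2 or more. Lengths in the list ran from 5.37 to 1478 kb, so this set does not match it gene by gene. Whether the list differs from genes of its lengths was not tested. By role, a peak was found in 4 of 7 other ligands, 1 of 3 ligand-like genes with an EGF domain, 2 of 4 proteases, 20 of 35 adaptors and effectors, 3 of 10 inhibitors and 3 of 6 scaffolds. Median lengths differed between roles, and the share among genes of like length was not computed by role.

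The 10 genes with a peak in 2 or more replicates covered most of these roles. Egf, the gene of a main EGFR ligand, had 0, 1 and 1 peaks in replicates 1, 2 and 3, as did Cspg5, which encodes the ligand-like proteoglycan neuroglycan C. Adam19, a protease that can cleave neuregulin, had 0, 2 and 1. Among adaptors and effectors, Grb2, which links receptors to Ras, had 0, 3 and 1. Gab1, a docking protein, had 0, 4 and 1, and Nck2, an adaptor to the actin cytoskeleton, had 0, 3 and 3. Gsk3b, a kinase under the control of Akt, had 0, 3 and 2, and Stat5b, a transcription factor that ErbB4 can activate, 0, 1 and 3. Among inhibitors, Lrig1, whose protein promotes the degradation of ErbB receptors, had 1, 5 and 1, and Cblb, a ubiquitin ligase that acts on EGFR, 1, 1 and 2. Lrig1 and Cblb were the 2 genes of the list with a peak in replicate 1. In 12 of the 22 combinations of these genes and replicates with a peak there were 10 or more calls, and the 5hmC share in them ran from 0% to 50.0% with a median of 30%. The lowest was that of Lrig1 in replicate 1 (0% of 11 calls, interval 0 to 28.5%) and the highest that of Nck2 in replicate 3 (50.0% of 28, 30.6 to 69.4%). The deepest were Gab1 in replicate 2 (35.3% of 51, 22.4 to 49.9%), Lrig1 in replicate 2 (34.9% of 43, 21.0 to 50.9%) and Stat5b in replicate 3 (22.6% of 31, 9.59 to 41.1%).

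**Figure D5:**
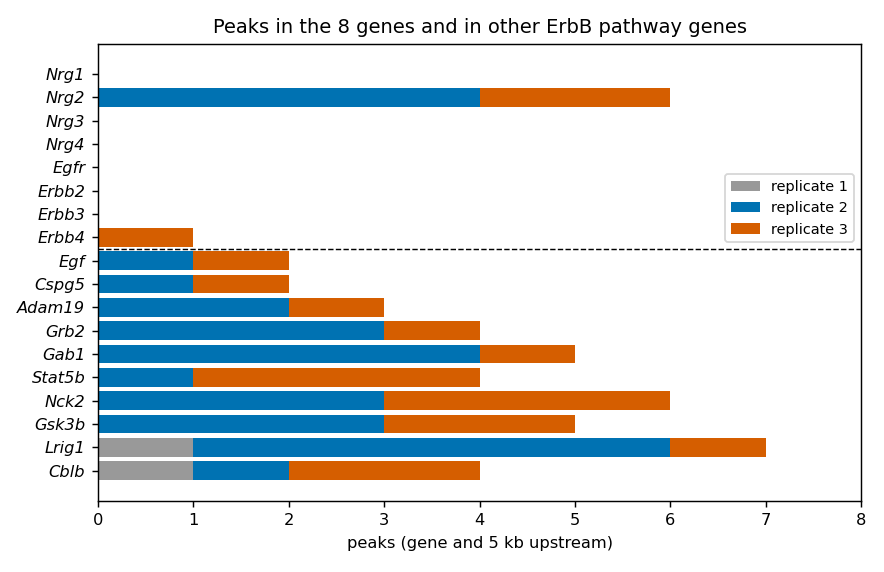
Number of peaks in the gene and the 5 kb upstream (horizontal axis, stacked by replicate: grey 1, blue 2, orange 3) for the 8 genes (above the dashed line) and the 10 other ErbB pathway genes with a peak in 2 or more replicates. Nrg2, with 6 peaks, has as many as Nck2 and 1 fewer than Lrig1, and Lrig1 and Cblb alone have a peak in replicate 1.

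In 2 of those 10 genes the peaks of replicates 2 and 3 overlapped, as they did in Nrg2. Counted by region and not by gene, 6.08% of 10997 merged regions in protein-coding genes were found in 2 or more replicates. The like share by gene was not computed, so whether 2 of 10 is usual was not tested. In Egf the merged region (GRCm39 chromosome 3, 129519453 to 129520255, 803 bp) lay in intron 5 of 21 and held 17 CpGs. Calls of 5hmC in it were 1 of 4 in replicate 2 and 0 of 4 in replicate 3. In Lrig1 the merged region (chromosome 6, 94663643 to 94664633, 991 bp) lay in intron 1 of 17 and held 16 CpGs. Calls of 5hmC in it were 4 of 11 for replicate 2 (36.4%, interval 10.9 to 69.2%) and 5 of 12 for replicate 3 (41.7%, 15.2 to 72.3%). Replicate 1 gave 1 of 2. Replicates 2 and 3 thus both gave 5hmC calls in Lrig1, and in Egf 1 of 8 calls over both was 5hmC. A stretch of 300 bases around the summits is shown for each, as the pathway regions that were enriched in more than 1 replicate, from chr3:129519954-129520253 and chr6:94664191-94664490 of the plus strand of GRCm39, with CpGs in capitals. The Egf stretch held 8 CpGs and the Lrig1 stretch 3.
Egf intron 5: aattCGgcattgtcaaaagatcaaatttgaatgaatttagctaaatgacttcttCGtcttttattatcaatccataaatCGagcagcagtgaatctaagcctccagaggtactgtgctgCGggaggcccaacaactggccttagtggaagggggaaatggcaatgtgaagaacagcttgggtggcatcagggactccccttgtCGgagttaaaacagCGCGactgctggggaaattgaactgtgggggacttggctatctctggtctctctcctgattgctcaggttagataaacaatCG
Lrig1 intron 1: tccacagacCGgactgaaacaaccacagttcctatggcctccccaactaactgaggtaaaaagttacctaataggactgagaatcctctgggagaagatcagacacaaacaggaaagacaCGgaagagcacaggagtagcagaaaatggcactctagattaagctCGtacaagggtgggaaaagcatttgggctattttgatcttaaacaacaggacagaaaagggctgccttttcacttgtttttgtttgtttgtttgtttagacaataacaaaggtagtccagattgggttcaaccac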

How the data were processed

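Deposited data were peak lists and CpG base-calls of 3 hMeDIP-seq replicates of mouse cerebellum. The authors called bases with Dorado 0.5.1, aligned them to GRCm39 with minimap2 2.24, called peaks with MACS2 2.2.6 and tallied base modification with modkit 0.2.8. The deposited peak lists give the fold enrichment over local background (a linear ratio), −log10 q-values and a score. The deposited base-call tables give counts of 5hmC, 5mC and C calls, and the percent modified, at CpGs of the forward strand within peaks of the 3 lists, so CpGs elsewhere in these genes were not analysed. Shares of 5hmC were computed from the counts of calls with exact binomial 95% intervals (scipy 1.17.1, Python 3.11.15), which cover counting error only. All depth was kept, with a minimum of 1 call per site. Genes were taken from GENCODE M39. The longer of 2 annotated genes named Nrg1 was used, and peaks were placed in the protein-coding transcript of the longest span. Peaks were counted when they overlapped the gene or the 5 kb upstream by 1 bp, merged across replicates where they overlapped by 1 bp, and set beside genes 20% shorter to 25% longer. Counting was tested on simulated data.

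The 8 genes, the pathway list and the rules were chosen with earlier results of these data known. All 8 genes were named, pathway genes were named with a peak in 2 or more replicates, and for a gene with 5 or more peaks the 3 genes of like length with the nearest counts were named. Ntm, Auts2 and Wwox were named after their values were seen. A planned exact sign-flip test per gene was not possible, since 0 of the 8 genes had 10 calls in every replicate, and 3 replicates allow no p under 0.25.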

Additional observations from a re-analysis of the deposited data

How the results depend on the processing

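The mean number of peaks per replicate in the 8 genes (2.33) fell to 1.00 with peaks of at least 4-fold enrichment, to 2.00 with q-values under 0.01, which drops the Erbb4 peak, and was 1.50 to 3.50 with each replicate left out. Counted within the Ensembl canonical transcripts and 5 kb upstream, an alternative chosen after seeing the data, it was 0.667. The ratio of peak density to protein-coding genes (0.128) was 0.283 with peaks of at least 4-fold enrichment, 0.203 per CpG, 0.0858 to 0.192 with each replicate left out and 0.0247 without Nrg2, which was also chosen after seeing the data. It was under 1 in each of these alternatives. The 5hmC share (46.0%) was 33.3% at sites with 3 or more calls, which rests on 1 replicate, 38.8% in peaks of at least 4-fold enrichment and 30.7% over merged regions, where replicate 1 enters at 0% of 1 call. It was 42.0 to 50.0% with each replicate left out, 47.5% over single sites and 49.2% over single peaks with 5 calls or more, and no site had 5 calls. The count of regions in 2 or more replicates (1) was 0 without replicate 2 or without replicate 3, and 1 without replicate 1. The cause of these shifts was not tested. No paired analysis was possible because the samples form a single group. Depth limits the shares of 5hmC, with a median of 1 call per site.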
